A study of Arabidopsis thaliana with 32 samples.

Results

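Roots of 8-day Sku6 seedlings were compared with roots of 4-day Sku6 seedlings, both grown on the ground. Sku6 is an Arabidopsis thaliana line with an altered SPIRAL1 gene (SPR1), whose product binds cortical microtubules and whose loss makes roots skew to one side. Both groups were light-grown ground controls of a spaceflight experiment, on plates in a growth unit kept in a chamber that replayed the temperature, light and CO2 of the space station. Seedlings were fixed in RNAlater, and their roots were dissected later and pooled, with 2 to 3 roots in each replicate at 8 days and 5 to 8 roots in each replicate at 4 days, and 4 replicates in each group, per the labels' protocols. Age and the number of roots in a pool cannot be told apart. The members described here are all 1873 loci of the authors' deposited table for this comparison, of 4802 loci listed in any of the series' 12 tables. Only loci called by the authors, with q no higher than 0.05, are in it, and it gives 1 FPKM value (fragments per kilobase of transcript, scaled to library size) per group. Values per replicate were not used here, so no spread between replicates can be given, and the depth of each library is unknown. Every FPKM value below is the authors' group value, every q-value is theirs, and every log2 value is the log2 ratio of their 8-day FPKM to their 4-day FPKM.

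The root of a seedling grows from a meristem at its tip, where stem cells around a quiescent centre feed files of cells that divide, elongate and then differentiate. Older zones add root hairs, a Casparian strip and suberin in the endodermis, lignified xylem and lateral roots, and the root takes up nitrate, phosphate and metals through transporters that respond to supply. The mix of these zones in a whole root changes as it grows. In such bulk samples, more cells of a type and more RNA per cell cannot be told apart. SPR1 was not listed between the ages, and its level in ground Sku6 was 13.0 FPKM at 8 days and 7.21 FPKM at 4 days, against 1422 and 1262 FPKM in ground Col-0 of the same ages, in the authors' tables that compare the genotypes.

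At 8 days 946 loci were higher and 927 were lower in the authors' deposited table, or 4.77% and 4.67% of about 19852 loci tested, a total of 9.43%. The number of loci tested is an estimate from the steps of the authors' q-values. Rises were larger than falls: 441 loci were at least 2-fold higher (2.22% of those tested) and 226 at least 2-fold lower (1.14%), and at the 8-fold step the counts were 50 higher and 15 lower. The higher loci had a median log2 of 0.94 and were mostly of moderate abundance, with a median of 17.8 FPKM at 8 days and 8.35 FPKM at 4 days. The lower loci had a median log2 of −0.61 and were more abundant, with medians of 48.5 FPKM at 8 days and 81.9 FPKM at 4 days. The q-value was 0.00120, the lowest in the authors' deposited table, for 826 of the 1873 loci.

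**Figure D1:**
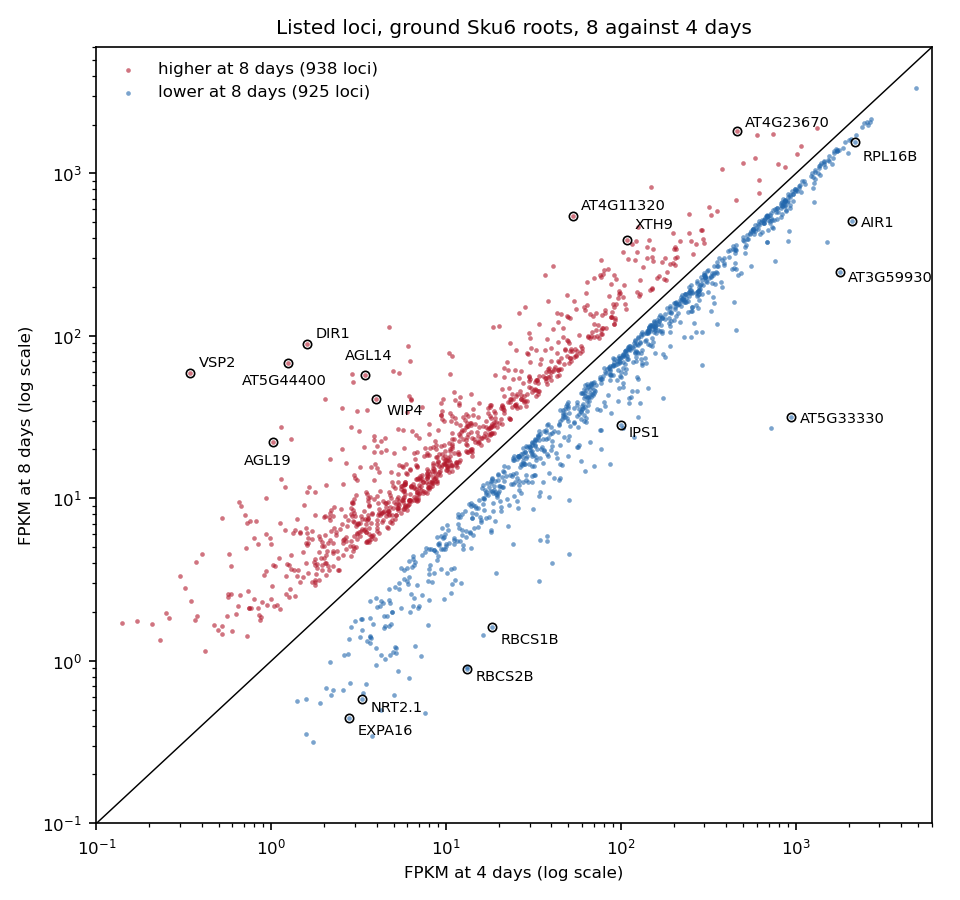
Authors' FPKM values of the listed loci in ground Sku6 roots at 8 days (vertical axis) and 4 days (horizontal axis), both on log scales; each point is 1 locus, red for higher and blue for lower at 8 days, the line marks equal values, and the loci listed at 0 in a group are not drawn. VSP2, DIR1, AGL19 and AGL14 lie far above the line, and AT5G33330, AT3G59930, RBCS1B and RBCS2B far below it, while most lower loci lie close under the line at high abundance.

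The highest ratios belonged to genes that were low at 4 days. VSP2 (AT5G24770, chr5:8500468-8502224 on TAIR10.1), a vegetative storage protein induced by jasmonate, stood at 59.1 FPKM at 8 days and 0.344 FPKM at 4 days. Its 4-day level is under 1 FPKM, so the ratio depends on a very low value, and it shares 1 assembled interval with its close relative VSP1, so the split of reads between them is uncertain. Next was DIR1 (AT5G48485, chr5:19646028-19646840), a lipid transfer protein needed for long-distance resistance signalling, at 89.0 FPKM at 8 days and 1.60 FPKM at 4 days. On TAIR10.1 DIR1 lies within AT5G48480, a gene of the other strand with 103 FPKM at 8 days and 77.9 FPKM at 4 days. The authors' intervals for the pair do not overlap, but the libraries keep no strand, so shared reads cannot be told apart. AT5G44400, a berberine-bridge-type oxidase gene, had 68.6 FPKM at 8 days and 1.25 FPKM at 4 days. These 3 genes were thus near the lower end of the measured range in young roots and moderately abundant in older ones. The O-methyltransferase gene AT1G77520 was 24.1-fold higher, the class III peroxidase gene AT2G18150 23.9-fold higher and the beta-glucosidase gene BGLU7 20.3-fold higher. AT4G14060 of the polyketide cyclase family had a log2 value of 4.33. The cytochrome P450 gene CYP71A19 was 17.8-fold higher and the invertase and pectin methylesterase inhibitor gene AT2G01610 17.7-fold higher. LSH1, a nuclear protein gene named for its role in light-grown seedlings, had 2 entries over the same interval, with 10.0 and 9.52 FPKM at 8 days, against 0.934 and 0.657 FPKM at 4 days.

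In absolute level the largest gain was that of AT4G23670, a gene of the major latex protein type, with 1821 FPKM at 8 days and 459.9 FPKM at 4 days. DR4, which encodes a protein similar to protease inhibitors, had 1727 FPKM at 8 days and 596 FPKM at 4 days. The glycine-rich protein gene GRP9 had 1761 FPKM at 8 days and 739.9 FPKM at 4 days. These genes were already abundant at 4 days and gained 2-fold to 4-fold. The papain-type protease gene AT4G11320 combined both kinds of change, at 545 FPKM at 8 days and 52.9 FPKM at 4 days. The hydroxyproline-rich protein gene AT4G38080 was 2.82-fold higher and the lipid transfer protein gene AT2G18370 3.71-fold higher, while the dehydrin gene AT1G54410 and the cold-induced gene KIN2 gained less, with log2 values of 0.54 and 0.53.

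The deepest falls were in 2 neighbouring loci of chromosome 5. AT5G33330 (chr5:12591683-12592904), annotated as a ribonuclease H-like protein, stood at 31.9 FPKM at 8 days and 943 FPKM at 4 days. The defensin-like gene AT5G33355 (chr5:12599250-12599944) stood at 27.2 FPKM at 8 days and 719 FPKM at 4 days. Both were listed over the same assembled interval, so their reads may not be separate, and the authors' deposited table gives q-values of 0.0155 for AT5G33330 and 0.0373 for AT5G33355. Further defensin-like genes, which encode small cysteine-rich peptides, were lower as well. AT3G59930 was at 249 FPKM at 8 days and 1777 FPKM at 4 days, and AT1G34047 of the same family at 4.56 FPKM at 8 days and 50.6 FPKM at 4 days. ECS1 was 14.5-fold lower, the glucosyltransferase gene UGT76E2 11.1-fold lower, and AT2G04460 and AT1G44010 of unknown function were 10.8-fold and 7.91-fold lower. AIR1, an auxin-induced gene of the lipid transfer type, had 508 FPKM at 8 days and 2100.3 FPKM at 4 days. A further entry for the same AIR1 interval had 66.3 FPKM at 8 days and 292 FPKM at 4 days, and because the library kit keeps no strand, reads of overlapping entries cannot be told apart. The metallothionein gene MT1C, the most abundant of the loci named here, had 3347 FPKM at 8 days and 4850.2 FPKM at 4 days.

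Only 10 loci were listed at 0 in a group. At 4 days 8 were at 0, among them the cytochrome P450 genes CYP78A5 and CYP93D1, the second at 2.38 FPKM at 8 days, and the MADS-box gene AGL79, at 2.18 FPKM at 8 days. The loci at 0 at 8 days were AT5G46940 and AT5G46950, with 2.56 and 1.93 FPKM at 4 days. Both encode pectin methylesterase inhibitor-type proteins and lie beside another such gene, AT5G46960, with 0.479 FPKM at 8 days and 7.59 FPKM at 4 days. No fold is given where a group is at 0.

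**Figure D2:**
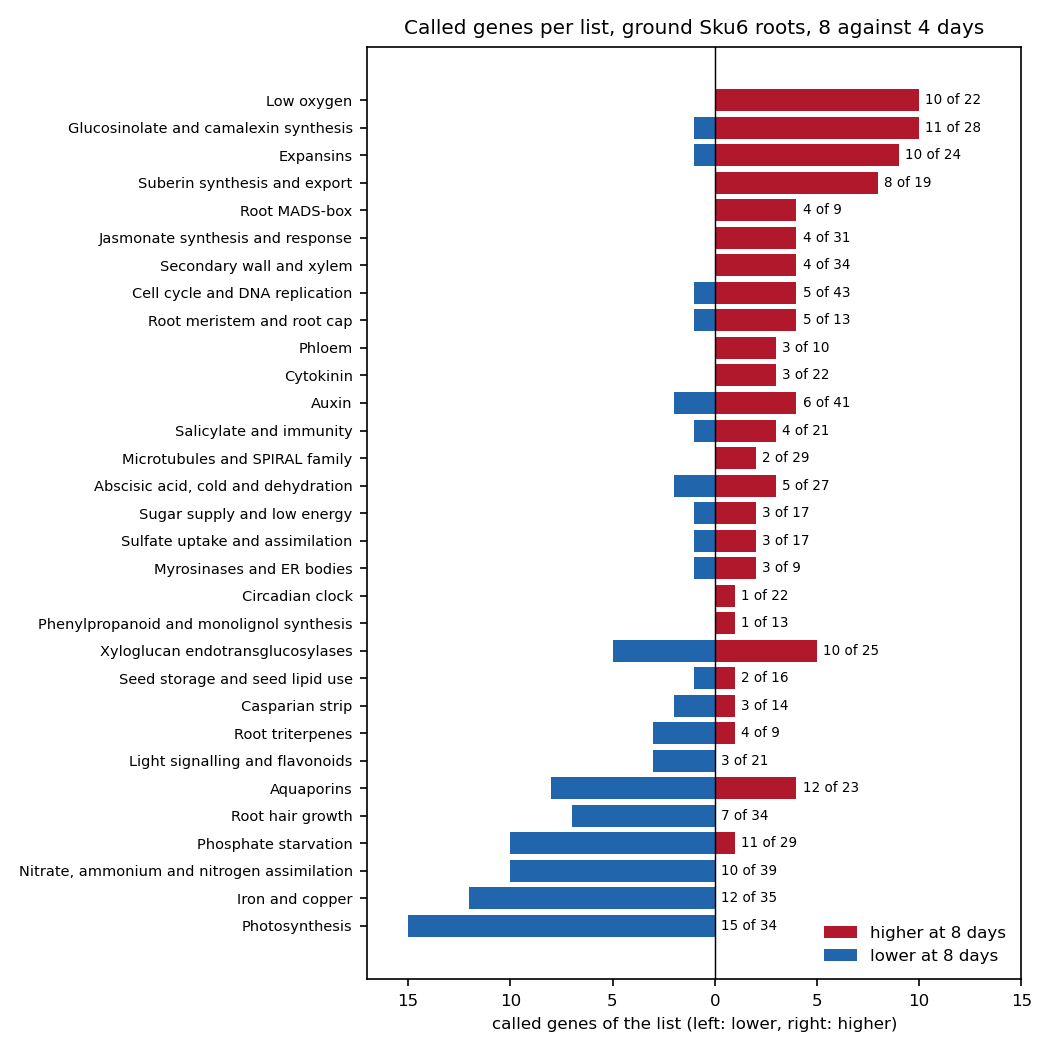
Number of genes of each of 31 gene lists that were called higher (red, to the right) or lower (blue, to the left) at 8 days in the authors' deposited table, with the called and total genes of the list printed beside each bar. The photosynthesis, iron, nitrogen and phosphate lists lie to the left, and the low-oxygen, glucosinolate, expansin and suberin lists to the right.

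Transcripts of photosynthesis were lower at 8 days. Of 34 photosynthesis genes, 15 were called (44.1%, against 9.43% of all loci tested), and all 15 were lower, with a median log2 of −1.09. Genes of the small subunit of Rubisco, the carbon-fixing enzyme, fell most. RBCS2B was at 0.895 FPKM at 8 days and 13.2 FPKM at 4 days, RBCS1B at 1.61 FPKM at 8 days and 18.4 FPKM at 4 days, and RBCS3B at 3.99 FPKM at 8 days and 40.3 FPKM at 4 days. These 3 genes lie side by side on chromosome 5 and are near-identical in sequence, so the split of reads between them is uncertain. RBCS1A, elsewhere in the genome, was more abundant and fell less, at 119 FPKM at 8 days and 262 FPKM at 4 days. The antenna genes LHCB1.3 and LHCB1.5, which encode light-harvesting proteins of photosystem II, were 1.60-fold and 1.62-fold lower. PSBR, a photosystem II subunit gene, was at 323 FPKM at 8 days and 515 FPKM at 4 days, and RCA, the Rubisco activase gene, at 13.7 FPKM at 8 days and 30.8 FPKM at 4 days. The list also marks shoot tissue left on a dissected root. Its 15 called entries summed to 756 FPKM at 8 days and 1349.8 FPKM at 4 days, and the part of shoot tissue in the other falls was not tested. Of the 16 genes of seed storage and seed lipid use, which mark seed remains, 2 were called (12.5%). The gluconeogenesis gene PCK1 was higher (108 FPKM at 8 days and 76.6 FPKM at 4 days). The glyoxylate cycle gene ICL was lower (1.29 FPKM at 8 days and 3.65 FPKM at 4 days).

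The bases before the annotated start of RBCS2B (TAIR10.1 chr5:15382072-15382371, minus strand, from the RefSeq genome) are shown because they hold both light-associated elements searched for, in capitals: the I-box GATAAG and the G-box CACGTG, on either strand.
RBCS2B: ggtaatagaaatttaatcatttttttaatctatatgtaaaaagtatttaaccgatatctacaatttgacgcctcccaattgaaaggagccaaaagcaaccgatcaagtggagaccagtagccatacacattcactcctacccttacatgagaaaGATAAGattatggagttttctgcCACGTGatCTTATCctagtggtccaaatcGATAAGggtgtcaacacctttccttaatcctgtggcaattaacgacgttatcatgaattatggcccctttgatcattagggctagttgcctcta
This window of 300 bases holds 3 I-boxes and 1 G-box. The windows of RBCS1B and RBCS3B hold neither, which depends on where their annotated starts lie. The last bases of the RBCS1B window resemble an inner stretch of the RBCS2B window. They end in gataa, an I-box without its last base, and the base after the window was not searched. Over the windows of all 27443 protein-coding genes, 14.5% hold an I-box and 7.09% a G-box, and among the 15 lower photosynthesis genes 3 hold an I-box and 2 a G-box. The matches describe the sequence and identify no active site.

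Phosphate-starvation genes were lower at 8 days. Of 29 such genes, 11 were called (37.9%), 10 lower and 1 higher, with a median log2 of −0.84. The noncoding RNA gene IPS1, whose transcript binds and blocks miR399, had 28.4 FPKM at 8 days and 99.6 FPKM at 4 days. A related RNA gene named AT4 had 816 FPKM at 8 days and 1255 FPKM at 4 days. The uptake transporter genes PHT1;1 and PHT1;4 were 2.56-fold and 3.39-fold lower, with PHT1;1 at 98.0 FPKM at 8 days and 251 FPKM at 4 days. SPX1, which encodes a phosphate-dependent inhibitor of the starvation regulator PHR1, was at 45.6 FPKM at 8 days and 123 FPKM at 4 days. PHO1 and PHO1;H1, exporters that load phosphate into the xylem, were 1.69-fold and 2.49-fold lower, PHO1 as part of a merged locus. The transporter trafficking gene PHF1 and the phospholipid recycling gene GDPD1 were lower too, with log2 values of −0.77 and −0.84. The exception was NPC4, a phospholipase gene that frees phosphate from membrane lipids, at 10.7 FPKM at 8 days and 3.51 FPKM at 4 days.

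PHR1 binds an element called P1BS, read GNATATNC on either strand. Of the 10 lower phosphate genes, AT4, MGD2 (listed in a merged locus) and GDPD1 hold it within the 300 bases before their annotated start, against 6.5% of all 27443 windows. The MGD2 window overlaps exon sequence of its neighbour AT5G20400. The windows of GDPD1 (TAIR10.1 chr3:350011-350310, minus strand) and AT4 (TAIR10.1 chr5:894282-894581, plus strand), from the RefSeq genome, are shown with the element in capitals, since GDPD1 carries 2 copies and AT4 has 1 close to its start.
GDPD1: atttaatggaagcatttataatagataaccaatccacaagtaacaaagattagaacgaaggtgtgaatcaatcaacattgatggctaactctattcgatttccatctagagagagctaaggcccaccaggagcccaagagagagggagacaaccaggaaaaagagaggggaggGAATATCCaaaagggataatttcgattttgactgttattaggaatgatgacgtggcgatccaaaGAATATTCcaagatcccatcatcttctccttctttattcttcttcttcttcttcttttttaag
AT4: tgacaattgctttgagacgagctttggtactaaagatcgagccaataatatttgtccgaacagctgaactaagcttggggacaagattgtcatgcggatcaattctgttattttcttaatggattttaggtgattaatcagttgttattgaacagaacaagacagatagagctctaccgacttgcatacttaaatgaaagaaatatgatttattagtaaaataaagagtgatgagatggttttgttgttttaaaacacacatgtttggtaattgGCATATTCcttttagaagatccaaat
No match was found in this window for IPS1, SPX1 or PHT1;4, which says only that these letters are not in it.

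Nitrogen genes also fell. Of 39 genes of nitrate, ammonium and nitrogen assimilation, 10 were called (25.6%) and all 10 were lower. The high-affinity nitrate transporter gene NRT2.1 was at 0.581 FPKM at 8 days and 3.29 FPKM at 4 days, a low level at both ages, and its partner NRT3.1 at 42.1 FPKM at 8 days and 114 FPKM at 4 days. The ammonium transporter gene AMT1;3 had 21.4 FPKM at 8 days and 44.7 FPKM at 4 days. Uptake and assimilation were thus both represented. The glutamine synthetase gene GLN1;2, of the first assimilation step for ammonium, had 269 FPKM at 8 days and 552 FPKM at 4 days. The root ferredoxin reductase genes RFNR1 and RFNR2 and the xylem-loading transporter gene NRT1.5 fell less, with log2 values of −0.40, −0.32 and −0.42.

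Of 35 iron and copper genes, 12 were called (34.3%), all in lower loci, with a median log2 of −0.91 over their entries. IRT1 and FER3 are counted here by merged loci. FIT, the master regulator of iron uptake, had 18.3 FPKM at 8 days and 49.9 FPKM at 4 days. IRT1, the main iron importer of the root, was listed in a locus merged with AT4G19650, at 38.6 FPKM at 8 days and 128 FPKM at 4 days. Nicotianamine synthases make the chelator that carries metals within the plant, and their genes fell together: NAS1 was 2.03-fold lower, NAS4 2.72-fold lower, and NAS2 lower in both of its entries. F6'H1 and ABCG37, which make and secrete iron-mobilising coumarins, were at 79.0 and 11.3 FPKM at 8 days, against 129 and 18.8 FPKM at 4 days. The copper-zinc superoxide dismutase genes CSD1 and CSD2, which are known to be high when copper is ample, were 1.61-fold and 1.35-fold lower, and the copper transporter gene COPT2, known to be high under copper shortage, 1.88-fold lower. The iron-storage gene FER3 lies in a merged locus with EIF3C, so its own change cannot be given. In the sulfate list 3 of 17 genes were called (17.6%), in mixed directions. The vascular transporter gene SULTR2;1 had 32.4 FPKM at 8 days and 9.28 FPKM at 4 days. The reductase gene APR1 was 1.37-fold higher and the uptake transporter gene SULTR1;2 1.45-fold lower.

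Suberin genes rose together. Of 19 genes of suberin synthesis and export, 8 were called (42.1%) and all 8 were higher, with a median log2 of 1.57. Suberin is the waxy polymer laid down around older endodermal cells and in the periderm. GPAT5, an acyltransferase of the pathway, had 12.2 FPKM at 8 days and 2.57 FPKM at 4 days. The fatty acid hydroxylase gene CYP86A1 had 45.4 FPKM at 8 days and 11.0 FPKM at 4 days, and CYP86B1, which acts on longer chains, 14.6 FPKM at 8 days and 8.31 FPKM at 4 days. The alcohol-forming reductase genes FAR1, FAR4 and FAR5 were higher, with log2 values of 1.67, 1.48 and 1.32. Synthesis was joined by export and regulation: the transporter gene ABCG2 was 2.54-fold higher, and MYB93, a regulator expressed in the endodermis near lateral roots, 3.24-fold higher. Of 14 Casparian strip genes 3 were called (21.4%), 1 higher and 2 lower. CASP5, a scaffold protein of the strip, was at 9.69 FPKM at 8 days and 25.4 FPKM at 4 days, the endodermal regulator SCR was 1.65-fold lower, and ESB1, a dirigent protein of the strip, was 1.53-fold higher.

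**Figure D3:**
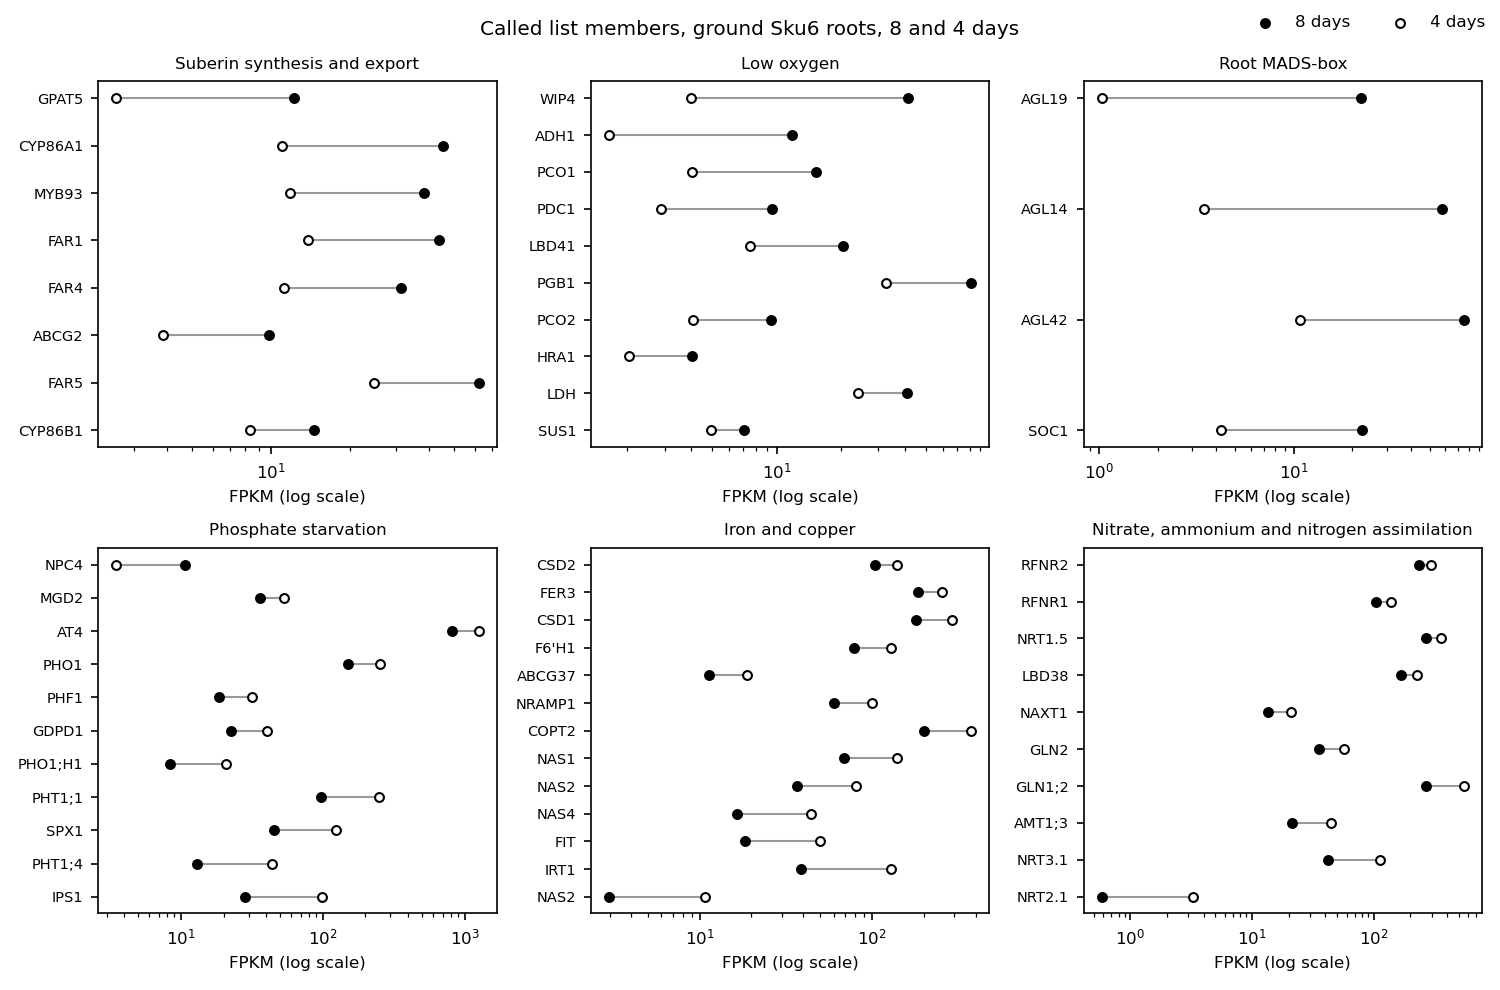
Authors' FPKM values of the called members of 6 gene lists in ground Sku6 roots, filled circles for 8 days and open circles for 4 days, each axis on its own log scale; a gene with more than 1 entry has a row for each, and the values of PCO2, MGD2, PHO1, FER3 and IRT1 are those of merged loci. In the upper row every filled circle lies to the right of the open one, and in the lower row all but NPC4 lie to its left.

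In the xylem and secondary wall list 4 of 34 genes were called, a share of 11.8% that is near the 9.43% of all loci tested. All 4 were higher: the lignin laccase genes LAC4 and LAC10, the nuclease gene BFN1, which is active in dying xylem vessels, and ACL5, a thermospermine synthase gene that delays vessel differentiation. ACL5 was the most abundant of them, at 130.3 FPKM at 8 days and 87.4 FPKM at 4 days. In the phloem list 3 of 10 genes were called (30.0%), all higher. The lectin gene PP2-A1 was at 54.0 FPKM at 8 days and 24.0 FPKM at 4 days, the sieve element protein gene SEOR1 was 2.69-fold higher and OPS, which promotes protophloem differentiation, 3.61-fold higher. Of 176 leucine-rich repeat kinase genes 22 were called (12.5%, near the 9.43% of all loci tested), 18 higher and 4 lower. From the higher ones, 4 known from the cambium and vascular tissue were picked after their values were seen. PXY, which receives the signal that keeps the cambium dividing, had 7.81 FPKM at 8 days and 2.90 FPKM at 4 days, RUL1 was 2.11-fold higher, MOL1 1.79-fold higher and XIP1 1.54-fold higher. Of the monolignol synthesis list 1 of 13 genes was called (7.69%), PAL4, with a log2 value of 0.56.

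Expansins, proteins that loosen the wall of growing cells, were mostly higher. Of 24 expansin genes 10 were called (41.7%), 9 higher and 1 lower. EXPA4 had 385 FPKM at 8 days and 217 FPKM at 4 days, EXPB3 427 FPKM at 8 days and 245 FPKM at 4 days, and EXPA15 292 FPKM at 8 days and 121 FPKM at 4 days. EXPA8 and EXLA3, of low abundance, were 5.34-fold and 5.28-fold higher, while EXPA16 was 6.26-fold lower and under 1 FPKM at 8 days. Of 25 genes for xyloglucan endotransglucosylases, which cut and rejoin hemicellulose, 10 were called (40%), 5 higher and 5 lower. XTH9 had the largest change, at 390.3 FPKM at 8 days and 107 FPKM at 4 days, whereas XTH31, the most abundant member, was lower, at 426 FPKM at 8 days and 621 FPKM at 4 days. XTH16 and XTH21 were 2.15-fold and 2.03-fold lower. Root hair genes were lower where called, 7 of 34 (20.6%). They included the bHLH regulator gene RSL2 (7.97 FPKM at 8 days and 12.3 FPKM at 4 days), the wall protein genes PRP3 and EXT10 (1.51-fold and 1.43-fold lower) and RHS13 (179.6 FPKM at 8 days and 276 FPKM at 4 days).

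Genes of the root tip were split, with 5 of 13 called (38.5%), 4 higher and 1 lower. WOX5, a homeobox gene of the quiescent centre, was lower, at 8.74 FPKM at 8 days and 25.7 FPKM at 4 days. Other members of its list were higher: the meristem size regulator gene UPB1 (72.4 FPKM at 8 days and 34.7 FPKM at 4 days), the peptide gene RGF2, the root cap regulator gene SMB and SCM, a receptor kinase gene of epidermal patterning. In the cell cycle list 5 of 43 genes were called, a share of 11.6% that is near the 9.43% of all loci tested. Among them 4 were higher, 1 of these counted by a merged locus. CYCD6;1, a cyclin of formative divisions in the ground tissue, had 24.5 FPKM at 8 days and 6.75 FPKM at 4 days. The mitotic cyclin gene CYCA1;1 was 2.13-fold higher and the replication gene MCM5 1.59-fold higher, while SIM, an inhibitor that favours endoreduplication, was 1.39-fold lower. Of the microtubule list, which holds the SPIRAL1 relatives, 2 of 29 genes were called (6.90%), a share under that of all loci. SP1L5, a relative of the altered SPR1, had 175 FPKM at 8 days and 85.4 FPKM at 4 days, and the tubulin gene TUB7 222 FPKM at 8 days and 181 FPKM at 4 days.

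The root MADS-box genes had the highest median of any list, 3.43 on the log2 scale over 4 called genes of 9 (44.4%), all higher. AGL19 was at 22.2 FPKM at 8 days and 1.03 FPKM at 4 days, and AGL14, a regulator of auxin transport and stem cell patterning in the root, at 57.6 FPKM at 8 days and 3.46 FPKM at 4 days. AGL42 was at 75.0 FPKM at 8 days and 10.8 FPKM at 4 days, and SOC1, better known as an integrator of flowering signals, at 22.5 FPKM at 8 days and 4.22 FPKM at 4 days. All 4 belong to the SOC1 clade of MADS-box transcription factors, and they were between 5.32-fold and 21.6-fold higher.

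Shares of called genes in the hormone lists were somewhat above the 9.43% of all loci tested. Of 31 jasmonate genes 4 were called (12.9%), all higher: VSP1 at 86.4 FPKM at 8 days and 6.02 FPKM at 4 days, VSP2 as given above, and the low-abundance genes JAZ5 and TAT3, both under 5 FPKM at both ages. Of 41 auxin genes 6 were called (14.6%), 4 higher and 2 lower. The influx carrier gene LAX1 was 2.21-fold higher and the response factor gene ARF19 1.71-fold higher. The auxin oxidase gene DAO2 was higher too (26.3 FPKM at 8 days and 5.67 FPKM at 4 days). The other higher gene, GH3.2, is counted by a locus merged with CYP81F4 and CYP91A2, so its own change cannot be given. The conjugating enzyme gene GH3.1 and the lateral root regulator gene LBD29 (9.32 FPKM at 8 days and 18.4 FPKM at 4 days) were lower. Of 22 cytokinin genes 3 were called (13.6%), all higher. They were the response regulator genes ARR4 and ARR7, with log2 values of 0.59 and 0.86, and CKX1, which encodes a cytokinin-degrading oxidase, at 11.0 FPKM at 8 days and 1.77 FPKM at 4 days. Of 21 salicylate and immunity genes 4 were called (19.0%), with DIR1, the chitinase gene PR3 (84.4 FPKM at 8 days and 39.8 FPKM at 4 days) and the salicylate synthesis gene ICS1 higher, and ALD1, of pipecolic acid synthesis, lower (3.08 FPKM at 8 days and 7.86 FPKM at 4 days).

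Low-oxygen genes were higher. Of 22 genes, 10 were called (45.5%) and all 10 were higher, with a median log2 of 1.38. Plants sense oxygen through cysteine oxidases that mark a family of transcription factors for breakdown, and fermentation genes are induced when these factors persist. The alcohol dehydrogenase gene ADH1 had 11.8 FPKM at 8 days and 1.64 FPKM at 4 days, and the pyruvate decarboxylase gene PDC1 9.54 FPKM at 8 days and 2.88 FPKM at 4 days. The cysteine oxidase genes PCO1 and PCO2 were 3.79-fold and 2.31-fold higher, PCO2 in a merged locus. The phytoglobin gene PGB1, whose product removes nitric oxide, was the most abundant, at 81.5 FPKM at 8 days and 32.6 FPKM at 4 days. WIP4, a wound-induced peptide gene, had 41.1 FPKM at 8 days and 3.97 FPKM at 4 days, and the regulators LBD41 and HRA1 were 2.72-fold and 1.97-fold higher.

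Genes of glucosinolates, sulfur-containing defence compounds, were mostly higher. Of 28 glucosinolate and camalexin genes 11 were called (39.3%), 10 higher and 1 lower. CYP79B2 and CYP79B3 turn tryptophan into the shared precursor of indole glucosinolates and camalexin. CYP79B2 had 111 FPKM at 8 days and 46.7 FPKM at 4 days, CYP79B3 103 FPKM at 8 days and 77.1 FPKM at 4 days, and the next enzyme gene of the branch, CYP83B1, 186 FPKM at 8 days and 123 FPKM at 4 days. Their regulator gene MYB34 was 1.94-fold higher and the methyltransferase gene IGMT5 1.90-fold higher. The rise was not particular to the indole branch. BCAT4 and BAT5, outside that branch, had 234 and 98.4 FPKM at 8 days, against 165 and 69.9 FPKM at 4 days. CYP81F4 lies in a merged locus with CYP91A2 and the auxin gene GH3.2, at 561 FPKM at 8 days and 246 FPKM at 4 days, so its own change cannot be given. By that locus CYP81F4 is counted among the 10 higher. The camalexin genes did not move together: CYP71A12 was at 2.53 FPKM at 8 days and 0.665 FPKM at 4 days, and PAD3, the last enzyme of the pathway, at 7.14 FPKM at 8 days and 15.9 FPKM at 4 days.

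Water and solute channels were called often, 12 of 23 aquaporin genes (52.2%), with 4 higher and 8 lower. NIP5;1 is counted among the lower ones by a merged locus. The abundant plasma membrane channels PIP1;1, PIP2;1 and PIP2;2 were lower, at 462, 638 and 521 FPKM at 8 days, against 739, 864 and 785 FPKM at 4 days. PIP1;3 went the other way, at 452 FPKM at 8 days and 286 FPKM at 4 days, and PIP2;5, low at 4 days, was at 17.4 FPKM at 8 days and 2.17 FPKM at 4 days. The vacuolar channel gene TIP2;3 was 2.12-fold lower and NIP1;1 1.91-fold higher. Of 17 sugar and low-energy genes 3 were called (17.6%). The sucrose efflux gene SWEET11 and the sucrose transporter gene SUC1 were 2.46-fold and 1.82-fold higher, and the vacuolar sugar transporter gene SWEET16 was 1.39-fold lower.

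The remaining lists had few called genes each, though some shares were far above the 9.43% of all loci tested. Of 27 genes of abscisic acid, cold and dehydration 5 were called (18.5%). KIN1 was at 341 FPKM at 8 days and 153 FPKM at 4 days. The dehydrin gene XERO2 was 1.48-fold higher and the dehydration gene RD22 1.93-fold lower. Of 9 root triterpene genes 4 were called (44.4%). The marneral genes MRN1 and MRO and the triterpene synthase gene PEN1 were 1.73-fold, 1.44-fold and 2.16-fold lower. THAH, of thalianol metabolism, was 1.37-fold higher. Of 21 light and flavonoid genes 3 were called (14.3%), all lower. Among them was the flavonol regulator gene MYB12, at 69.9 FPKM at 8 days and 98.0 FPKM at 4 days. Of 9 genes of myrosinases and ER bodies, which hold the enzymes that release toxic products from glucosinolates, 3 were called (33.3%). The ER body regulator gene NAI1 was 1.73-fold higher and TGG4, a root myrosinase gene, 2.28-fold lower. The other called gene lies in a merged locus. Of 22 clock genes only ELF3 was called (4.55%), at 12.8 FPKM at 8 days and 8.30 FPKM at 4 days.

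Many ribosomal protein genes were slightly lower at 8 days. Of 348 genes annotated as ribosomal proteins 69 were called (19.8%), 68 lower and 1 higher, with a median log2 of −0.36. Ribosomal proteins are made in bulk in growing cells, and their transcripts were abundant at both ages. RPL16B had 1555 FPKM at 8 days and 2168 FPKM at 4 days, and the S19e gene AT3G02080 1140.2 FPKM at 8 days and 1610.3 FPKM at 4 days. The S4 gene AT5G15200 had 1999 FPKM at 8 days and 2571 FPKM at 4 days, and STV1, an L24e gene, 1402 FPKM at 8 days and 1715 FPKM at 4 days. Both subunits of the ribosome were represented. The largest fall in the group was that of RPSAb, at 42.3 FPKM at 8 days and 64.1 FPKM at 4 days, and the only rise that of AT4G17560, an L19 family gene, at 26.9 FPKM at 8 days and 17.8 FPKM at 4 days. Many of these genes have near-identical copies, so the split of reads within a pair is uncertain. Over the same annotated genes the authors' deposited tables for the same ages listed 19 higher and 7 lower in ground Col-0, 1 higher and 73 lower in flight Sku6, and 2 higher and 81 lower in flight Col-0. Of all loci tested, 5.69% were higher and 5.54% lower in ground Col-0, 3.92% higher and 4.43% lower in flight Sku6, and 3.33% higher and 3.45% lower in flight Col-0. The difference between these tables was not tested.

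**Figure D4:**
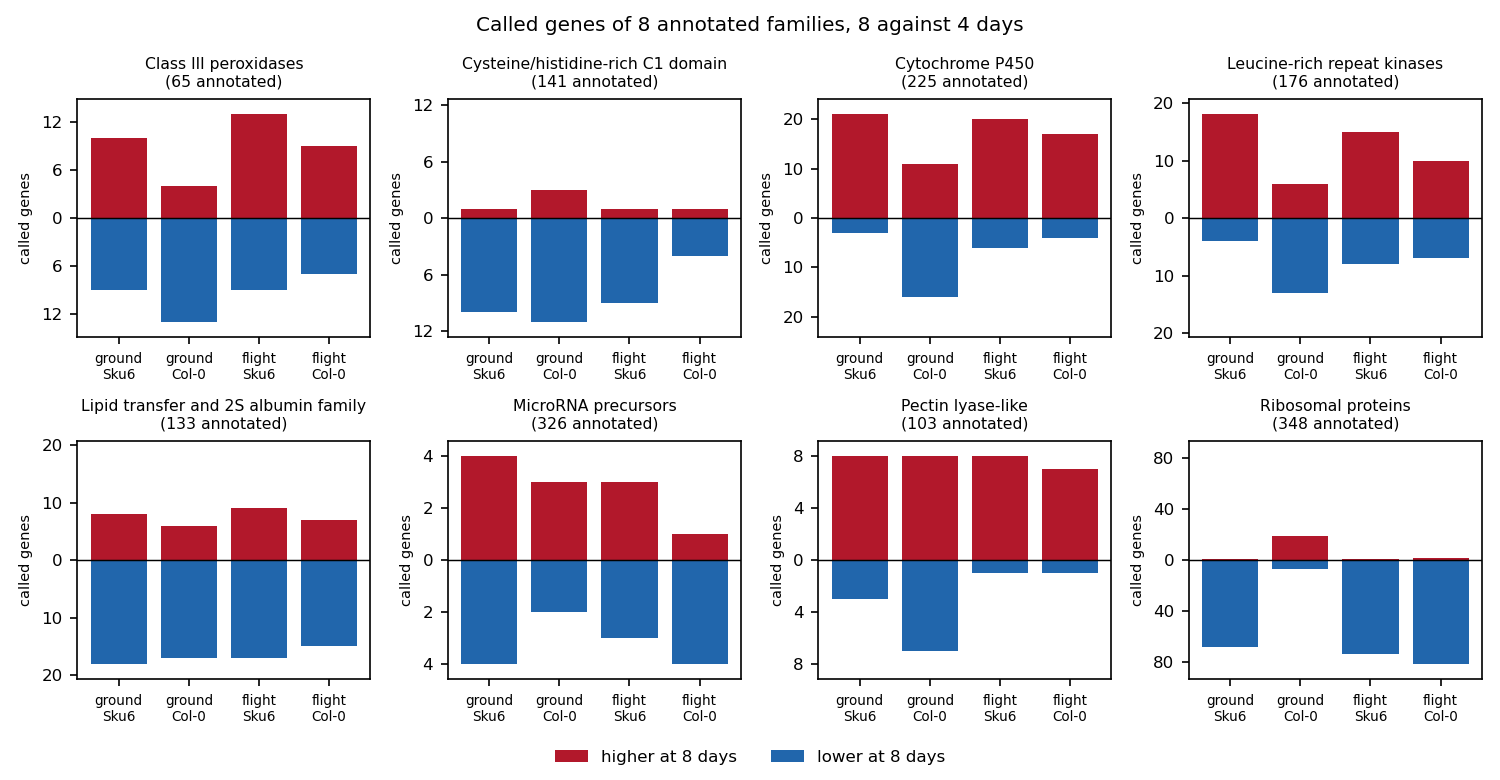
Number of genes of 8 annotated families called higher (red, above 0) or lower (blue, below 0) at 8 against 4 days in the authors' deposited tables for ground Sku6, ground Col-0, flight Sku6 and flight Col-0. Ribosomal protein genes were lower in 68, 7, 73 and 81 cases in that order, and cytochrome P450 genes higher in 21, 11, 20 and 17.

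Other annotated families were picked after the table had been seen. Of 225 cytochrome P450 genes 24 were called, 21 higher and 3 lower, and the share of 10.7% is near the 9.43% of all loci tested. The 21 include CYP710A1, CYP710A2, CYP712A1, CYP81F4 and CYP91A2, which are counted by merged loci. The counts were 20 higher and 6 lower in flight Sku6, 17 higher and 4 lower in flight Col-0, and 11 higher and 16 lower in ground Col-0. Apart from CYP78A5 and CYP93D1, listed at 0 at 4 days, the rises in ground Sku6 ran from CYP79B3 at the small end to CYP71A19, and CYP77B1 was the largest fall, at 0.727 FPKM at 8 days and 2.84 FPKM at 4 days. Of 176 leucine-rich repeat kinase genes 22 were called (12.5%), 18 higher and 4 lower, with 15 higher and 8 lower in flight Sku6, 10 higher and 7 lower in flight Col-0, and 6 higher and 13 lower in ground Col-0. BAM1 and BAM2, receptors of CLE peptides in the meristem, were 2.11-fold and 1.81-fold higher, and HAE, the receptor of abscission, was at 1.84 FPKM at 8 days and 0.259 FPKM at 4 days. Of 65 class III peroxidase genes 19 were called (29.2%), 10 higher and 9 lower. AT2G18150 and AT4G36430 led the rises, the second at 116 FPKM at 8 days and 19.9 FPKM at 4 days, while the most abundant peroxidase gene called, AT3G32980, was at 1011 FPKM at 8 days and 1347 FPKM at 4 days. Of 103 pectin lyase-like genes 8 were higher and 3 lower, a share of 10.7% that is near that of all loci, with AT4G24780 at 255 FPKM at 8 days and 80.3 FPKM at 4 days. Of 141 genes of the cysteine- and histidine-rich C1 domain family 10 were lower and 1 higher, a share of 7.8% that is under that of all loci, and none was above 30 FPKM. No difference between the counts of the 4 tables was tested.

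Of 133 genes of the lipid transfer and 2S albumin family 26 were called (19.5%), 18 lower and 8 higher. Several of the lower ones sit close together on chromosome 4. AT4G12545, next to AIR1, had 381 FPKM at 8 days and 1512 FPKM at 4 days, EARLI1 163 FPKM at 8 days and 229 FPKM at 4 days, and AT4G12510 and AT4G12520 244 and 449 FPKM at 8 days, against 353 and 569 FPKM at 4 days. These copies are similar in sequence, and reads may be shared between them. The higher ones, apart from DIR1, included AT3G58550 at 387 FPKM at 8 days and 145 FPKM at 4 days and XYP1, an arabinogalactan protein gene of xylem differentiation, at 78.4 FPKM at 8 days and 29.1 FPKM at 4 days. Across the genome 10 runs of at least 3 neighbouring called genes with 1 direction were found, holding 31 genes. How many such runs would arise if calls were spread without regard to position was not worked out. DIR1 and the overlapping AT5G48480 lie in the same higher run, and similar copies in a run may share reads. Among the 5 lower runs were the Rubisco genes, the pectin methylesterase inhibitor genes of chromosome 5, and the heat shock protein genes Hsp81.4, HSP81-3 and HSP81-2, with HSP81-3 at 127 FPKM at 8 days and 178 FPKM at 4 days. A run of reductase genes held TRI, a tropinone reductase gene, at 67.7 FPKM at 8 days and 132 FPKM at 4 days, with AT2G29320 and AT2G29340 beside it.

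MicroRNA precursor loci were called in 8 cases of 326 annotated, 4 higher and 4 lower. The share of 2.45% is under the 9.43% of all loci tested. MIR157a and MIR162b are counted by loci merged with the genes PMI2 and CaS, so their own changes cannot be given. MicroRNAs pair with target transcripts through their seed, the bases 2 to 8 of the mature RNA, and in plants through most of their length. The mature sequences of the most changed precursors outside merged loci are shown, read from the RefSeq genome (TAIR10.1), with the seed in capitals. Those of miR160b (chr4:9888986-9889006, plus strand) and miR158b (chr1:20772273-20772292, plus strand) belong to precursors that were higher, and those of miR164c-5p (chr5:9852684-9852704, plus strand) to one that was lower.
miR160b: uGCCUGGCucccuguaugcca
miR158b: cCCCAAAUguagacaaagca
miR164c-5p: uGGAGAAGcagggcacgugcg
The 3 seeds differ. MIR160b had 20.3 FPKM at 8 days and 2.53 FPKM at 4 days, MIR158b 7.53 FPKM at 8 days and 0.526 FPKM at 4 days, and MIR164c 2.62 FPKM at 8 days and 10.7 FPKM at 4 days. An abundant precursor locus, MIR163, was lower, at 210.2 FPKM at 8 days and 343 FPKM at 4 days. These values count fragments of the precursor locus in a library primed on poly(A) RNA and do not measure the mature microRNA. miR160 is known to target the auxin response factor genes ARF10, ARF16 and ARF17, none of which was called. Of 6 known targets of miR164, including NAC1, CUC1 and CUC2, 1 was called: NAC080, which was lower like the precursor, at 10.3 FPKM at 8 days and 24.6 FPKM at 4 days. Both target lists were written after the table had been seen.

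The same age comparison was made by the authors in Col-0 on the ground and in both genotypes in flight, with no sample in common with ground Sku6. Ground Col-0 had 2235 listed loci (11.2% of those tested), and 924 were shared with ground Sku6, which is 49.3% of the ground Sku6 loci and 41.3% of the ground Col-0 loci. Of these, 900 had the same direction, 493 higher and 407 lower. Flight Sku6 had 1647 listed loci (8.35% of those tested), of which 945 were shared, 50.5% of the ground Sku6 loci and 57.4% of the flight Sku6 loci, and 925 had the same direction. Flight Col-0 had 1357 listed loci (6.78% of those tested), of which 819 were shared, 43.7% of the ground Sku6 loci and 60.4% of the flight Col-0 loci, and 806 had the same direction. Loci listed for both genotypes on the ground and in flight numbered 442, 434 of them with 1 direction, 268 higher and 166 lower. DIR1 was among them, with log2 values of 5.80 in ground Sku6, 5.61 in flight Sku6, 5.92 in ground Col-0 and 5.62 in flight Col-0. At 8 days on the ground the authors' direct comparison called DIR1 lower in Sku6, at 91.8 FPKM against 180 FPKM in Col-0. IPS1, SPX1 and FIT were listed in each of the 4 tables too, with ground Sku6 log2 values of −1.81, −1.44 and −1.45, against −1.95, −1.46 and −1.01 in ground Col-0. SP1L5 was higher at 8 days in each table, at 175 and 85.4 FPKM in ground Sku6, 102 and 29.4 FPKM in flight Sku6, 203 and 78.2 FPKM in ground Col-0, and 92.4 and 28.6 FPKM in flight Col-0, giving 8 days and then 4 days each time.

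In no other age table were 481 ground Sku6 loci listed, 249 higher and 232 lower. Their median absolute log2 was 0.67, against 1.19 for the loci of all 4 tables. Among those of at least 5 FPKM in a group, the largest rises, in order, were 1 LSH1 entry, PIP2;5, ABCG1, LAC5 and CKX1. That LSH1 entry had 9.52 FPKM at 8 days and 0.657 FPKM at 4 days, and the other LSH1 entry is not among these loci. The transporter gene ABCG1 was at 10.9 FPKM at 8 days and 1.61 FPKM at 4 days and the laccase gene LAC5 at 5.26 FPKM at 8 days and 0.843 FPKM at 4 days. On the lower side were MIR164c, the transcript AT4G10860 of unknown function at 5.84 FPKM at 8 days and 37.8 FPKM at 4 days, and ORG1 at 17.0 FPKM at 8 days and 58.8 FPKM at 4 days. That a locus was not listed in another table does not show that it was unchanged there, and the difference between contrasts was not tested.

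**Figure D5:**
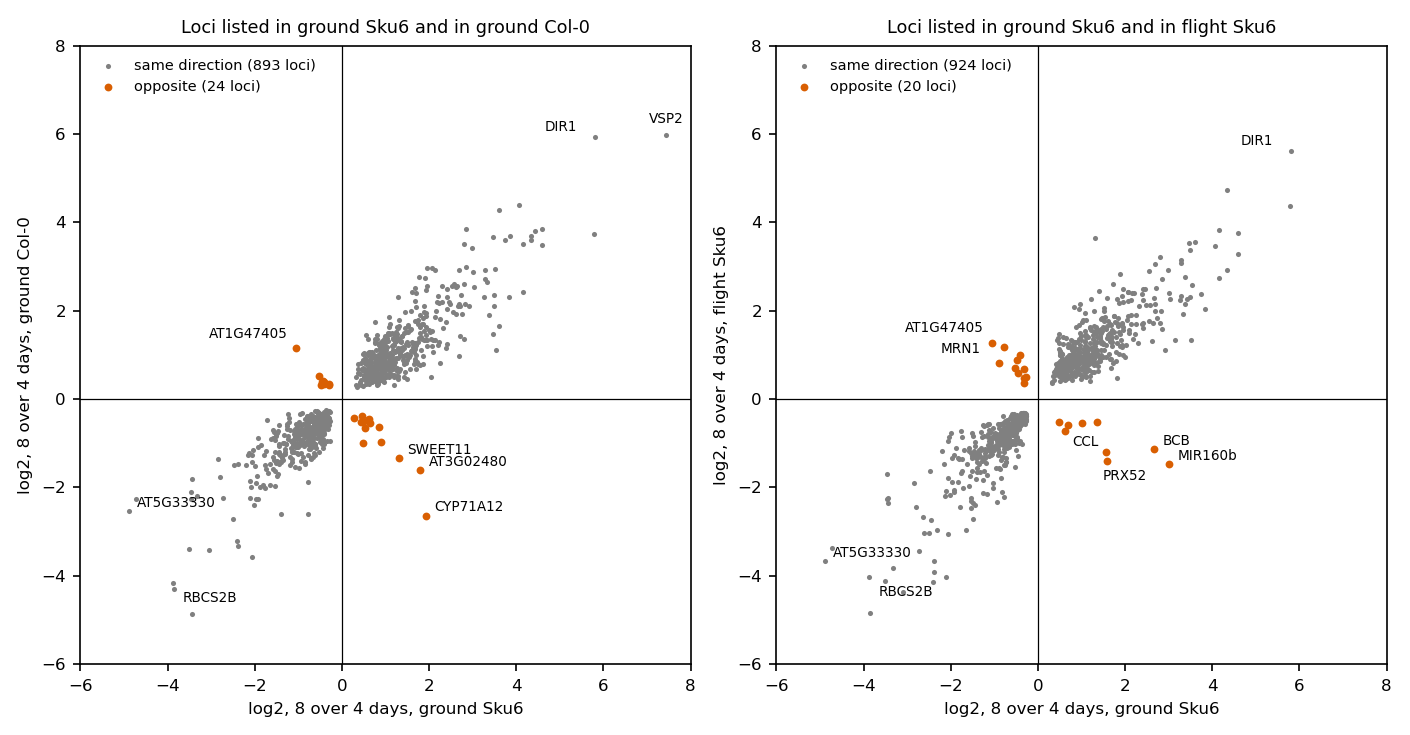
Log2 ratio of 8 over 4 days for loci listed in ground Sku6 (horizontal axis) and also in ground Col-0 (left panel) or flight Sku6 (right panel), without loci at 0 in a group; grey points have the same direction in both tables and orange points opposite directions. The points with opposite directions number 24 in the left panel and 20 in the right, and CYP71A12 and MIR160b lie farthest out among those that were higher in ground Sku6.

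Opposite directions were found for 24 loci against ground Col-0 and for 20 against flight Sku6. The LEA-type protein gene AT3G02480 was at 41.9 FPKM at 8 days and 12.1 FPKM at 4 days in ground Sku6, against 2.67 FPKM at 8 days and 8.12 FPKM at 4 days in ground Col-0. SWEET11 was at 15.3 FPKM at 8 days and 6.20 FPKM at 4 days in ground Sku6, against 3.94 FPKM at 8 days and 9.95 FPKM at 4 days in ground Col-0. CYP71A12 had log2 values of 1.93 in ground Sku6 and −2.64 in ground Col-0, with levels under 3 FPKM throughout. In these genes the genotypes were on opposite sides of the age change. At 8 days on the ground the authors' direct comparison called them too, with AT3G02480 at 43.2 FPKM in Sku6 and 2.74 FPKM in Col-0, SWEET11 at 15.7 FPKM in Sku6 and 4.05 FPKM in Col-0, and CYP71A12 at 2.61 FPKM in Sku6 and 0.222 FPKM in Col-0. Against flight Sku6 the widest gap was that of MIR160b, at 20.3 FPKM at 8 days and 2.53 FPKM at 4 days on the ground, against 3.03 FPKM at 8 days and 8.38 FPKM at 4 days in flight. BCB, a blue copper-binding protein gene, had 7.08 FPKM at 8 days and 1.12 FPKM at 4 days on the ground, against 2.78 FPKM at 8 days and 6.12 FPKM at 4 days in flight. The marneral synthase gene MRN1 was lower at 8 days on the ground and higher in flight, with log2 values of −0.79 and 1.18. Tables were scaled separately, and the 8-day Sku6 value of a gene is up to 1.03 times higher in the genotype comparison than in the age comparison.

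Some lists also had unlike counts in the other age tables. The glucosinolate list had 10 higher and 1 lower member in ground Sku6, 12 higher and 2 lower in flight Sku6, 12 higher and 1 lower in flight Col-0, and 3 higher and 3 lower in ground Col-0. Suberin genes were higher in 8 cases in ground Sku6, 10 in flight Sku6, 6 in flight Col-0 and 5 in ground Col-0, and lower in 1 case, in ground Col-0. GPAT5 had log2 values of 2.25 in ground Sku6, 1.91 in flight Sku6 and 0.81 in ground Col-0. At 4 days on the ground the authors' direct comparison called GPAT5 and CYP86A1 lower in Sku6, with CYP86A1 at 10.8 FPKM in Sku6 and 27.6 FPKM in Col-0. WOX5 was called higher there, at 25.0 FPKM in Sku6 and 15.3 FPKM in Col-0, and its fall with age was −1.55 in ground Sku6 and −0.75 in ground Col-0 on the log2 scale. The aquaporin list had 4 higher and 8 lower members in ground Sku6, 1 higher and 4 lower in each of the flight tables, and 0 higher and 12 lower in ground Col-0. Low-oxygen genes had 10 higher members and none lower in ground Sku6, 12 higher and none lower in flight Sku6, 9 higher and none lower in flight Col-0, and 10 higher and 1 lower in ground Col-0, while ADH1 at 8 days on the ground stood at 12.2 FPKM in Sku6 and 38.0 FPKM in Col-0. Of all loci tested, 9.43% were called in ground Sku6, 8.35% in flight Sku6, 6.78% in flight Col-0 and 11.2% in ground Col-0. None of these differences between contrasts was tested.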

How the data were processed

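Per the labels, root RNA of 4 pools per group was made into SMART-Seq v4 and Nextera libraries from 10 ng. Per the submitters' processing notes, the authors used STAR 2.5.1b, Cufflinks, Cuffdiff, Picard, Trimmomatic 0.36 and FastQC 0.11.2, and the build named is TAIR10. The authors deposited, per comparison, 1 FPKM value per group, a log2 fold change, a test statistic (a score, not used here), and p- and q-values, for loci with q at most 0.05 only. The deposited log2 is 4 over 8 days, so log2 was computed from the FPKM columns as 8 over 4 days (largest gap from the deposited size 1.24e-05). The authors' q-value is the only test. Numbers tested were worked back from the deposited p- and q-values, a step tested on simulated data. Of the loci, 109 merge several genes and 18 have no gene identifier. In the list and family counts a gene of a merged locus takes the direction of that locus. Those counts and shares are of genes, while the share of all loci tested is of loci.

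Members, lists and families were chosen with earlier results of these data known. Named genes are the 12 highest and 12 lowest ratios and the 8 largest FPKM differences each way among single-gene loci of at least 5 FPKM in a group, and, with no such minimum and merged loci included, up to 6 called members per list, SPR1, and up to 8 loci opposite in ground Col-0 or flight Sku6. Further members were named after their values were seen. Gene names, annotation and sequences came from RefSeq TAIR10.1, and 1743 of 1746 single-gene loci matched. Alternatives are given at the end. Python 3.11.15, pandas 2.3.3 and matplotlib 3.10.9 were used.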

Additional observations from a re-analysis of the deposited data

How the results depend on the processing

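At a q-value of at most 0.01 in the authors' deposited table, 548 loci were called lower at 8 days in place of 927, and 648 were called higher in place of 946. The counts of loci at least 2-fold higher and lower stayed within 1.5 times of their values at the stricter q-value, with 1 FPKM added to both groups (350 and 181, in place of 441 and 226), with a minimum of 1 FPKM in both groups, with a minimum of 5 FPKM in a group, without merged loci and with the deposited log2 value. With 1 FPKM added, the ratio of 23 of 174 named entries shrank by more than 1.5 times and none changed direction. VSP2 then had a log2 of 5.48 in place of 7.42, and EXPA16 one of −1.39 in place of −2.65. No paired analysis was possible because the files hold 1 value per group, and leaving out replicates was not run for the same reason. Depth is unknown, so low values such as those of VSP2 at 4 days, RBCS2B at 8 days and NRT2.1 carry an error that cannot be stated.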
